A study of Drosophila melanogaster with 31 samples.

Results

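The change in chromatin accessibility from stage 5 to stage 6 was described in grhM-Z- embryos, which lack both maternal and zygotic Grainy head (Grh). The mothers carried germline clones of the grhB37 null allele, made by FLP/FRT recombination, and the embryos were themselves grhB37/grhB37, so both stages are labelled with the same loss of grh and differ in their labels by stage alone. Of the 31 samples of the series, 6 belong here, 3 single embryos at stage 5 and 3 at stage 6. Stocks were kept on molasses food, and embryos were picked by absence of fluorescence, staged under a light microscope and genotyped by PCR. For the comparison between genotypes the grhMwtZwt control embryos, labelled grhMaternal+ and grhB37/+, gave 3 embryos at stage 5 and 2 at stage 6, and these controls thus still carry 1 copy of the mutant allele. Accessibility was measured by ATAC-seq, in which a transposase inserts adapters into open DNA, and the deposited values are peak lists called for each embryo. The first part of each peak's name gives the embryo, numbered 10, 11 and 12 at stage 5 and 4, 5 and 6 at stage 6. Overlapping peaks of the 6 embryos were merged into 61264 regions, of which 11339 were listed in every embryo. A region listed in all 3 embryos of stage 6 and none of stage 5 is called gained, and the opposite is called lost.

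At stage 5 the syncytial blastoderm forms cell membranes while the zygotic genome is broadly activated, and at stage 6 the gastrula begins to fold its mesoderm inward. Zelda (Zld), a maternally supplied zinc finger protein, binds CAGGTAG and related sites and keeps many early enhancers open. Grh binds AACCGGTT and AACTGGTT, is known as a regulator of the epidermal barrier, and can open chromatin in other tissues. Odd-paired (Opa), Dichaete (D) and Trithorax-like (Trl, also called GAGA factor) are further factors whose sites are found in early regulatory DNA.

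Some of the regions that changed most are shown first by a short sequence within 50 bp of their strongest summit, because the classes of regions differed in how often they held such motifs. They are picked examples, since most of the regions named below as the strongest changes held none of the motifs searched. Each stretch is 30 bases of the dm6 reference sequence from the strand named, written from 5′ to 3′, with the match to the motif in capitals. Among regions that weakened at stage 6, the motif of Zld lay near the summit at bnk, tsg and pcx, the motif of Bicoid (Bcd) at zen2 and CG15382, and that of Caudal (Cad) at Doc2. Among regions that strengthened or were new at stage 6, the motif of Opa lay near the summit by trn, that of Trl by kni and hb, and that of D by hb and Fer1HCH. As a class, gained regions held the Trl motif in 4.37%, against 4.68% of all regions. The regions by Tret1-1 (motif of Snail, Sna) and by E(Pc) and CG43184 (motif of Bcd) also held a match and are not shown.
bnk, fell, Zld motif, chr3R:31193252-31193281, minus strand: gtgccaaaagttCAGGTAGccgatcccgat
tsg, fell, Zld motif, chrX:11989043-11989072, plus strand: gtcgcgaaaatCAGGTAGtgaccctcagca
pcx, lost, Zld motif, chrX:2225819-2225848, minus strand: gggcgagcagagCAGGTAGagccacaggta
zen2, fell, Bcd motif, chr3R:6744913-6744942, minus strand: tagcgggcgattGGATTAgcttgaagtgac
CG15382, fell, Bcd motif, chr2L:2155647-2155676, plus strand: ttagggccactcGGATTAccgaccaattgg
Doc2, fell, Cad motif, chr3L:9029589-9029618, plus strand: ggtacttgagaTTTTATGaccaccgcgcct
trn, rose, Opa motif, chr3L:13120316-13120345, minus strand: agtcttctcctCGCAGCGGGacaattgggc
kni, gained, Trl motif, chr3L:20687864-20687893, plus strand: ccttgctggtgGAGAGAGgcacgctgtcgg
hb, gained, D motif, chr3R:8697946-8697975, plus strand: agtgcaacaacACAAAGGcgcacgagagcc
Fer1HCH, gained, D motif, chr3R:30383369-30383398, plus strand: atgagcgaaagACAAAGGaactattcggac
A match of this kind is a description of the sequence and does not show that the factor was bound.

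The deposited lists held 24961 to 32722 peaks per embryo at stage 5 and 32495 to 36749 at stage 6. The number of fragments over each summit and the local background were solved from the deposited fold enrichment and −log10 p. The median summit carried 14 to 17 fragments at stage 5 and 18 to 20 at stage 6, over a median background of 2.09 to 3.54 and of 3.56 to 4.24, so the stage 6 lists were the deeper ones. Total read counts are not used here. The share of peaks on the X chromosome was 19.2% to 20% in embryos 4, 6 and 10 and 16.1% to 16.6% in embryos 5, 11 and 12, and peaks on the Y chromosome numbered 387 and 454 in embryos 11 and 12 and 55 to 89 in the other 4. The level of the X chromosome was therefore high in 2 of 3 embryos at stage 6 and in 1 of 3 at stage 5. The lists carry no allele of grh, so the genotype could not be checked here.

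Between the stages, many more regions were new than were lost. Of the 61264 regions, 3023 were listed in all 3 stage 6 embryos and no stage 5 embryo (4.93%), and 708 in all 3 stage 5 embryos and no stage 6 embryo (1.16%). Regions listed in a single embryo numbered 12863 at stage 6 and 10491 at stage 5. Gained regions were of modest height, since their 3 embryos averaged 19.3 summit fragments in the median region, and those of lost regions 15.2. By comparison, the weakest 1000 peaks of an embryo had a median of 4 to 7 fragments, so a region that is not listed may still hold a weaker signal. When every list was shortened to its strongest 24961 peaks, 2076 regions were gained and 1025 lost, so part of the excess of gained regions went with list length. Gained regions numbered 4987 without embryo 10, 4914 without embryo 5 and 3452 to 4174 without each of the others. Lost regions numbered 1322, 1373 and 1528 without embryos 10, 11 and 12, and 921 to 1008 without each stage 6 embryo. With any embryo left out fewer embryos have to agree, and why the counts differ between embryos was not tested.

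**Figure D1:**
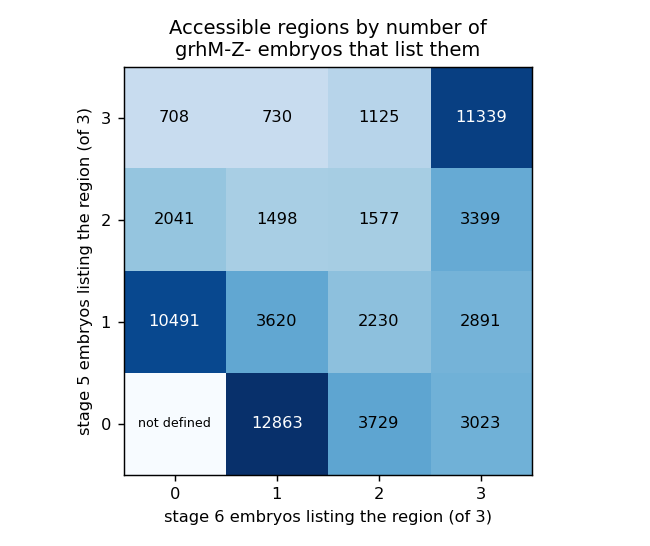
Numbers of merged regions by how many of the 3 stage 5 embryos (vertical) and of the 3 stage 6 embryos (horizontal) list them, in grhM-Z- embryos, with darker shading for more regions. The corner at lower right holds the 3023 gained regions, the corner at upper left the 708 lost regions, and the corner at upper right the 11339 regions listed in all 6 embryos.

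The 10 strongest gained regions lay 163 to 17826 bp from the nearest start site, and 3 of them were nearest to the regulators kni, hb and drm. The highest lay in an intron 17826 bp from the nearest start site, that of ssp3 (chr2L:18925957-18926448), with 83, 103 and 116 fragments in embryos 4, 5 and 6. A region 6648 bp from kni, a gap gene that sets up segments of the trunk (chr3L:20687668-20688152), carried 85, 72 and 90 fragments. Next to a start site of hb, another gap gene (chr3R:8697733-8698206, 163 bp away), there were 96, 99 and 90 fragments. All 3 regions were far above the weakest listed peaks in each stage 6 embryo, and by the definition of gained were listed in no stage 5 embryo. A region 10305 bp from drm, a zinc finger gene of the gut and leg (chr2L:3549690-3550197), carried 89, 89 and 87 fragments. Others of the strongest 10 lay nearest to CG6244, Fer1HCH (the ferritin heavy chain), lncRNA:CR44033, sba, CG14506 and CG11741, with 42 to 116 fragments per embryo. Of all gained regions, 29 were among the strongest 5000 regions of each stage 6 embryo.

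The strongest lost regions included 2 at genes of the blastoderm. At slam, which is required for the membranes of cellularization, a region over the 5′ UTR (chr2L:6372864-6374892, 146 bp from a start site) carried 118, 106 and 140 fragments in embryos 10, 11 and 12 and was listed in no stage 6 embryo. An intergenic region 1725 bp from a start site of sna, the repressor that marks the mesoderm (chr2L:15479547-15480173), carried 74, 70 and 83 fragments. The region nearest to CG43725 (chr2L:11074981-11075801) carried 103, 104 and 138 fragments, and the one nearest to CG43184 (chr3L:13837352-13838777) carried 50, 67 and 143. These regions were listed in each stage 5 embryo with 50 fragments or more, and embryo 12 was the highest at all 4. On the X chromosome, the region at pcx, a maternal gene of the Notch pathway (chrX:2225668-2226016), carried 78, 29 and 53 fragments, with the lowest value in embryo 11. The other 5 lay nearest to nan, CR43170, Plp, CR40182 and lncRNA:CR43941. Of all lost regions, 10 were among the strongest 5000 of each stage 5 embryo.

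For the 11339 regions listed in all 6 embryos, the strength was compared by rank, since the fragment numbers depend on depth. Within each embryo the regions were ranked by −log10 q, rank 1 being the strongest, and the ranks were turned into normal scores, so that a difference of 1 is 1 SD among the regions of an embryo. By limma with Benjamini-Hochberg adjustment over all of these regions, 647 rose (5.71%) and 582 fell (5.13%) at an adjusted p under 0.05. The ranks of the stages did not overlap at 1638 regions that were stronger at stage 6 (14.4%) and at 1707 that were weaker (15.1%). Of the regions that passed the test, 631 of the risers and 572 of the fallers had ranks that did not overlap. The median difference was 1.31 among the risers and -1.35 among the fallers, with a median SE of 0.32. Among the 6 embryos, Spearman's rho between ranks was 0.84 to 0.901 within stage 6, 0.763 to 0.827 within stage 5 and 0.575 to 0.73 between the stages, as a description over the same regions. Leaving out embryo 6 gave 260 risers and 289 fallers, leaving out embryo 4 gave 316 and 325, and leaving out embryo 11 gave 409 and 335.

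The largest rises in rank lay mostly away from start sites. At an intronic region 1823 bp from a start site of CG7968 (chr2L:13850625-13851703), the ranks were 464, 501 and 114 in embryos 4, 5 and 6 and 8966, 9545.5 and 11101.5 in embryos 10, 11 and 12. It held 89, 93 and 110 fragments at stage 6 against 17, 11 and 5 at stage 5, and its score rose by 3.21 (SE 0.33, adjusted p = 5.2e-06). No other region rose by more, and all regions named here were chosen for stages that do not overlap. By trn, a leucine-rich repeat protein of the cell surface, a region 6048 bp from the start site (chr3L:13119978-13120751) held 95, 97 and 119 fragments against 16, 15 and 9, with a difference of 2.74 (SE 0.30, adjusted p = 7.9e-06). By Toll-6, a Toll receptor of striped expression in the early embryo, a region 18308 bp away (chr3L:15354758-15355239) held 39, 62 and 61 fragments against 12, 8 and 8, with a difference of 2.69 (SE 0.49, adjusted p = 0.0013). Of these regions, that by Toll-6 had the widest spread among stage 6 embryos, with rank 7365 in embryo 4 against 3076.5 and 3464 in embryos 5 and 6.

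Other large rises included a promoter and a transporter gene. At CG12402 (chr3R:14108294-14108747, 259 bp from a start site), the fragments were 88, 101 and 86 at stage 6 and 18, 16 and 15 at stage 5, with a difference of 2.68 (SE 0.29, adjusted p = 7.9e-06). In an intron of Tret1-1, a trehalose transporter (chr2R:11666612-11667142), the ranks were 160, 34 and 37 against 4346, 6368 and 7227, with a difference of 2.63 (SE 0.30, adjusted p = 1.4e-05). This region was among the strongest of the genome in each stage 6 embryo and of middling strength in each stage 5 embryo. The rest of the 10 lay nearest to lncRNA:CR45256, lncRNA:CR45250, lncRNA:CR44630, PGRP-LA and CG45691, with differences of 2.61 to 2.99. The region by CG45691 held 30, 5 and 22 fragments at stage 5, so embryo 11 differed from its stage there.

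The largest falls included regions at start sites of genes of the blastoderm and intronic regions far from any start site. At CG15382 (chr2L:2155427-2156469, 73 bp from a start site), the ranks were 159, 146 and 814 in embryos 10, 11 and 12 and 11328, 10419 and 11221 in embryos 4, 5 and 6. Its fragments fell from 115, 100 and 136 to 13, 18 and 16, with a score difference of -4.23 (SE 0.37, adjusted p = 1.8e-06). It was the largest change of either sign among the regions tested, and it went from near the top of the order to near its end. At bnk, which encodes Bottleneck, a regulator of the actin network of cellularization (chr3R:31192799-31194389), the fragments were 93, 101 and 179 at stage 5 and 11, 10 and 8 at stage 6, with a difference of -3.35 (SE 0.33, adjusted p = 4.1e-06). At zen2, a homeobox gene beside zen in the Antennapedia complex (chr3R:6744691-6745146, 795 bp from a start site), they were 60, 54 and 87 against 16, 18 and 19, with a difference of -3.04 (SE 0.33, adjusted p = 8.2e-06). These regions were chosen for a large difference and for stages that do not overlap, so the separation of the embryos is part of the choice.

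Regulators of dorsal patterning were also among the 10 largest falls. The region at tsg, a secreted modulator of BMP signalling (chrX:11988406-11989353, 114 bp from a start site), held 82, 37 and 65 fragments at stage 5 and 16, 6 and 20 at stage 6, with a difference of -2.79 (SE 0.39, adjusted p = 0.00014). The lowest values of both stages came from embryos 11 and 5, which have the low share of X peaks, and embryo 12, also low in X, held 65. The region 10345 bp from Doc2, a T-box gene of the amnioserosa (chr3L:9028985-9030029), held 97, 92 and 135 fragments against 31, 30 and 33, with a difference of -2.76 (SE 0.27, adjusted p = 4.1e-06). Coding exons of E(Pc), the Enhancer of Polycomb gene, and of Sr-CII, a scavenger receptor, held summits that fell by 3.49 and 2.78 on the same scale. The other 3 lay more than 50 kb from any start site, in introns that are nearest to lncRNA:CR45220 (2 regions) and CR40450.

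**Figure D2:**
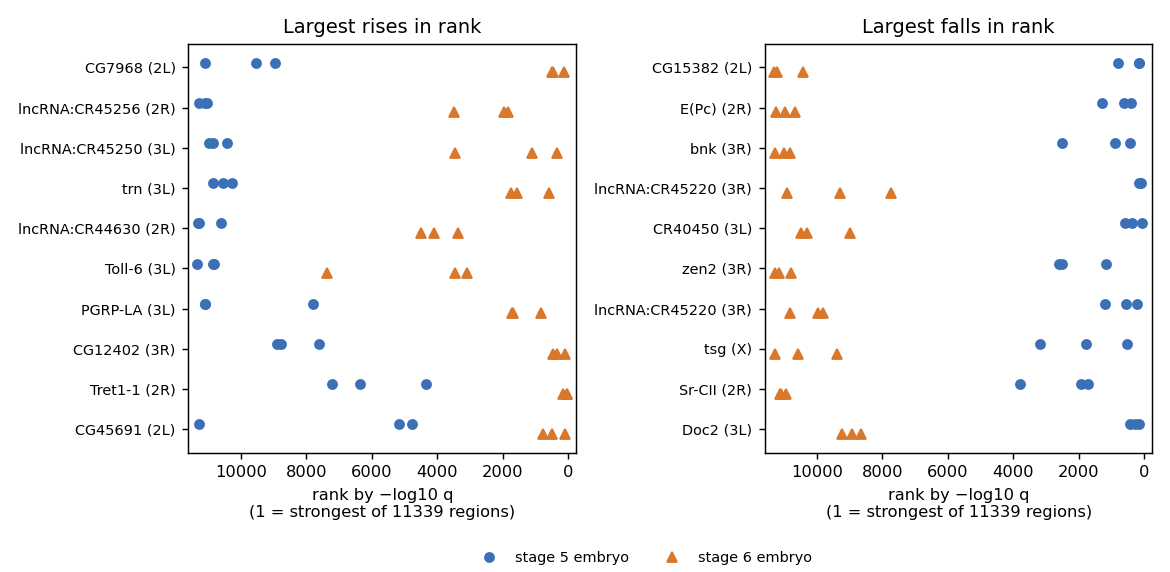
Rank of the 10 regions with the largest rise (left) and the 10 with the largest fall (right) in each grhM-Z- embryo, with rank 1, the strongest of the 11339 regions listed in all 6 embryos, at the right of each panel. Circles are the 3 stage 5 embryos and triangles the 3 stage 6 embryos, and the labels give the nearest gene and chromosome. The regions were chosen for stages that do not overlap, and Toll-6, with a stage 6 rank of 7365, and PGRP-LA, with a stage 5 rank of 7779.5, have 1 embryo nearer to the other stage.

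Regions far from any start site made up a larger share of fallers and lost regions than of all regions, as a description. Of the 228 tested regions over 50 kb from a start site, 49 fell and 1 rose, so that they made up 8.42% of the fallers, 0.155% of the risers and 2.01% of the regions tested. Among lost regions 85 were this far away (12.0%), and among gained regions 24 (0.794%), against 5.22% of all regions. The far fallers lay at 363298 to 3489415 on chromosome 3R (21 regions), at 462669 to 6441099 on 2R (12 regions) and at 23429231 to 26835561 on 3L (9 regions), all in the centromeric part of these arms, with 5 on X and 2 on Y. One of them, nearest to lncRNA:CR45220 (chr3R:2462768-2463176), held 87, 77 and 100 fragments at stage 5 and 17, 10 and 7 at stage 6, with a difference of -3.35 (SE 0.32, adjusted p = 3.2e-06). In the pooled lists its −log10 q fell from 79.3 at stage 5 to 11.6 at stage 6 in grhM-, and from 45.4 to 23.5 in grhMwt. The pooled stage 6 lists of grhZ- and grhZwt, which have no stage 5 list, held it at 124 and 137, and the bnk region at 8.85 and 2.69. The reason for its high values there was not tested. Reads that map to several places were removed before the peaks were called, and the part of repeated sequence in these falls was not tested.

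Promoters and base composition also differed between the classes, as a description. The strongest summit lay within 1 kb of a start site in 59.7% of the regions listed in all 6 embryos, in 53.0% of the risers and in 36.1% of the fallers. Of gained regions 26.9% were at promoters and of lost regions 19.4%, against 29.3% of all regions. The median GC content of the 101 bases around the summit was 50.5% in risers, 48.5% in fallers and 47.5% in all regions tested. In the strongest 5000 peaks of each embryo the promoter share was 75.5%, 74.2% and 77.2% at stage 5 and 73.8%, 78.8% and 73.5% at stage 6, and these overlapped (difference -0.267 percentage points, exact permutation p = 0.8, n = 3 and 3). Coding exons held the summit of 10.1% of fallers and 4.01% of regions tested.

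On the X chromosome 82 regions rose and 39 fell of 1891 tested, that is 4.34% and 2.06%. The median X region had a score difference of 0.12 and the median autosomal region one of -0.04, in the direction of the X level of the embryos. With each embryo's share of peaks on X as a covariate, an alternative chosen after the data were examined, 68 X regions rose and 73 fell, and over all chromosomes 613 rose and 578 fell. On the autosomes alone, tested by themselves, 703 regions rose and 645 fell.

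The classes also differed in the motifs near their summits. The motif of Zld, CAGGTAG, lay within 50 bp of the summit in 78 of 582 fallers (13.4%), in 10 of 647 risers (1.55%) and in 455 of the 11339 regions tested (4.01%). Among lost regions it was found in 48 of 708 (6.78%), among gained regions in 35 of 3023 (1.16%) and among all regions in 1.9%. Its reversed string, which has the same base composition, was found in 0.172% of fallers and 0.776% of regions tested. The motif of Bcd, GGATTA, was in 5.5% of fallers and 2.04% of regions tested, and that of Cad, TTTTATG, in 8.05% of lost regions and 2.88% of all regions. The Trl motif GAGAGAG lay in 114 of the risers (17.6%) against 9.79% of regions tested, and the Opa motif CGCAGCNNG in 28 risers (4.33%) against 2.28%. Among gained regions the Trl motif was in 4.37% against 4.68% of all regions, and the Opa motif in 2.84% against 1.7%. The Dref motif ATCGATA, common at promoters of genes active in most cells, was in 1.55% of risers and 3.26% of fallers against 8.78% of regions tested. The D motif ACAAAGG was in 100 gained regions (3.31%), against 1.99% of all regions. These motifs were searched on both strands of windows of equal length, the classes were chosen by the same ranks and no test was made of the shares.

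The Grh motif was rare in every class of these embryos and had overlapping shares at both stages. AACCGGTT or AACTGGTT lay near the summit in 0.155% of risers, 0.859% of fallers and 0.811% of regions tested, in 0.496% of gained regions and in 0.424% of lost regions. The reversed strings were found in 0.309% of risers, 0.687% of fallers and 0.714% of regions tested. They were found in 1.36% of gained and 0.989% of lost regions. In the strongest 5000 peaks of each embryo, a comparison that does not use the classes, it was found in 1.0%, 0.84% and 1.08% at stage 5 and in 0.94%, 1.1% and 1.02% at stage 6. The groups overlapped, and the difference was 0.0467 percentage points (exact two-sided permutation p = 0.6, adjusted p = 0.709 over 13 strings, n = 3 and 3). In the grhMwtZwt embryos the share was 1.14%, 1.26% and 1.14% at stage 5 and 1.22% and 1.28% at stage 6. Each of these values lay above every grhM-Z- embryo, and this difference between genotypes was not tested.

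In the same strongest peaks the Zld motif fell from 5.3%, 5.78% and 6.04% in embryos 10, 11 and 12 to 3.5%, 3.66% and 3.64% in embryos 4, 5 and 6. The groups did not overlap, the difference was -2.11 percentage points, and the exact two-sided permutation p was 0.1, the smallest that 3 embryos against 3 can give (adjusted p = 0.325). The motifs of Cad, Bcd and Sna (CAGGTG, whose first 5 letters open the Zld string too) were also lower in each stage 6 embryo, with differences of -0.673, -0.633 and -0.533 points and the same p of 0.1. The Opa motif was found in 2.81% ± 0.186 (SD, n = 3) of stage 6 and 2.59% ± 0.0833 of stage 5 peaks, and the Trl motif in 12.1% ± 1.43 and 10.8% ± 1.02, with overlap in both (exact permutation p = 0.3 for each). No share passed the threshold of 0.05, which this number of embryos cannot reach.

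**Figure D3:**
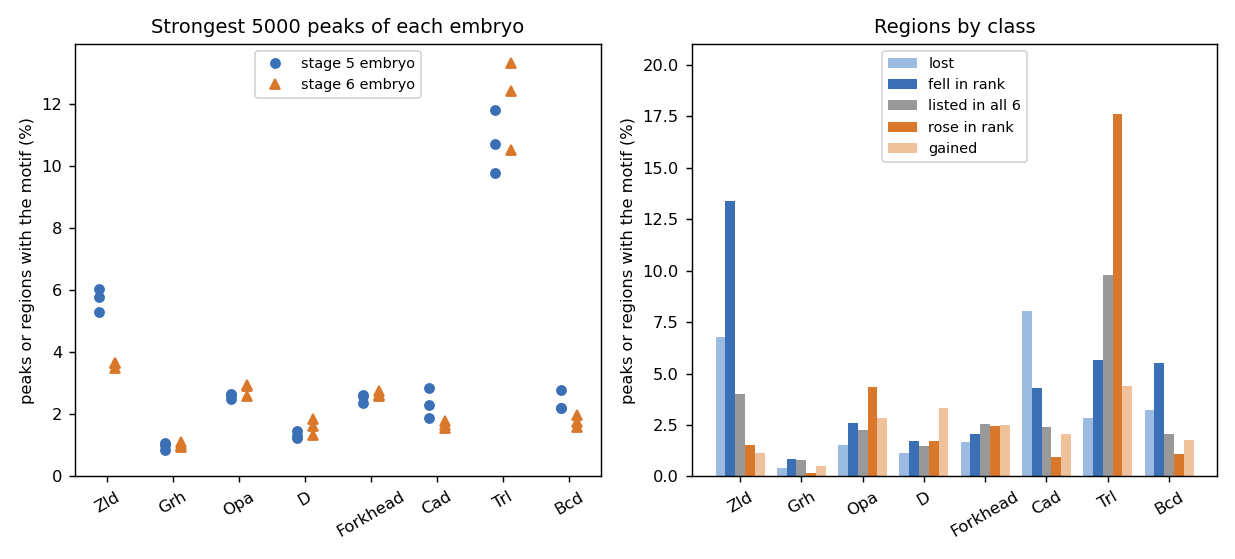
Left, percent of the strongest 5000 peaks of each grhM-Z- embryo with a motif within 50 bp of the summit, with circles for the 3 stage 5 and triangles for the 3 stage 6 embryos. Right, the same percent among regions that were lost, fell in rank, were listed in all 6 embryos, rose in rank or were gained. The Zld motif stands at 13.4% of the fallers and 1.55% of the risers, and the Trl motif at 17.6% of the risers.

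Genes of known pattern were followed through the regions within 1 kb of their start sites, with 15 lists. Of all 6768 such promoter regions tested, 343 rose (5.07%) and 210 fell (3.1%), with a median difference of 0.00. The list with the lowest median, -2.03, was that of the early zygotic genes of cellularization, where 3 of 5 promoter regions fell and none rose. Besides bnk, described above, the promoter of term, a short-lived blastoderm transcript (chr3L:18593562-18593990), held 77, 81 and 119 fragments at stage 5 and 18, 12 and 21 at stage 6, with a difference of -2.72 (SE 0.29, adjusted p = 6.6e-06). At Z600, the frühstart gene that inhibits mitotic entry (chr3L:15508756-15510187), fragments were 78, 69 and 124 against 23, 29 and 27, with a difference of -2.03 (SE 0.32, adjusted p = 0.00039). Within 1 kb of its start site, though nearer to that of CG7841, 2 short regions were gained (chr3L:15508194-15508319 and chr3L:15508449-15508617), with 32 to 53 fragments per stage 6 embryo.

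Gap genes and head genes had a few changed promoter regions each. At the kni promoter (chr3L:20694055-20695864) the ranks were 2085, 643 and 2781 at stage 6 and 3558, 9123 and 6697 at stage 5, a rise of 1.26 (SE 0.34, adjusted p = 0.020). None of the other 5 promoter regions of the 7 gap genes passed the test, and 2 gained regions lay at Kr and hb. Of the 12 promoter regions of the head genes 2 rose and 1 fell, against 5.07% and 3.1% of all promoter regions tested. The promoter of croc, a forkhead gene of the head (chr3L:21476410-21477071), held 141, 119 and 153 fragments against 89, 78 and 66 (difference 1.09, SE 0.33, adjusted p = 0.039). The promoter of slp1, a forkhead gene of both head and segments (chr2L:3825387-3825990), moved from ranks 383, 687 and 448 to ranks 4164, 2766 and 3555 (difference -1.21, SE 0.28, adjusted p = 0.0077), with about as many fragments, 97 to 111 against 89 to 128, in the deeper stage 6 libraries. A second region 839 bp from its start site (chr2L:3824721-3824936) was lost, with 26, 42 and 34 fragments at stage 5. Embryo by embryo, the stages did not overlap in rank at kni, croc or slp1.

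Farther from the start sites, and chosen after the values were seen, regions of 1 locus moved in opposite directions. In an intron of Kr 7097 bp from a start site (chr2R:25219198-25219685), the fragments rose from 40, 35 and 32 to 65, 88 and 101 (difference 1.71, SE 0.32, adjusted p = 0.0016), and at 3485 bp (chr2R:25222817-25223417) they fell from 86, 69 and 76 to 40, 43 and 49 (difference -1.34, SE 0.29, adjusted p = 0.0045). At hkb, a gap gene of the ends of the embryo, a region 1838 bp away (chr3R:4348178-4348824) went from ranks 1324, 1214 and 1288 to 10633, 10180 and 9826 (difference -2.52, SE 0.28, adjusted p = 1.1e-05). By ems, a head gap gene, a region 8016 bp away (chr3R:13909621-13910394) went the other way, from 9693, 7154.5 and 10191 to 2688, 2539 and 1148 (difference 1.81, SE 0.31, adjusted p = 0.00083). Neither of these last regions had overlapping stages.

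Pair-rule genes, which set the segment pattern, had 2 falls and no rise among 9 promoter regions, against 3.1% and 5.07% of all promoter regions tested. The ftz promoter (chr3R:6863647-6864671) went from ranks 3774, 3264 and 826 to 9564, 7404 and 8961 (difference -1.55, SE 0.32, adjusted p = 0.0031), and slp1 was the other that fell. The median of the list was -0.51. Among the regions nearest to pair-rule genes at any distance, 0 of 21 rose and 6 fell, against 5.71% and 5.13% of all regions. One of these, 4062 bp from odd (chr2L:3610546-3611175), held 87, 77 and 125 fragments at stage 5 and 39, 45 and 45 at stage 6 (difference -2.16, SE 0.35, adjusted p = 0.00054). Others lay by hry (hairy), slp2 and eve, with differences of -1.43, -1.35 and -1.22.

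Segment polarity genes maintain the segment borders after gastrulation. Of their 34 nearest regions 6 rose, 4 fell and the rest were not called, against 5.71% and 5.13% of all regions. Of their 11 promoter regions that of wg fell and none rose, against 3.1% and 5.07% of all promoter regions tested. At wg, the Wingless signal, a region 10508 bp away (chr2L:7296239-7296965) went from ranks 10572.5, 9522 and 11164 to 2228.5, 3151 and 1218 (difference 2.44, SE 0.33, adjusted p = 0.00012), while its promoter (chr2L:7306803-7307256) moved from 363, 717 and 176 to 2646, 1055 and 3769 (difference -1.02, SE 0.31, adjusted p = 0.040). The wg promoter held about as many fragments at both stages, 114, 93 and 137 at stage 5 and 105, 133 and 101 at stage 6. At en, the Engrailed homeobox gene, a region 18570 bp away (chr2R:11546560-11547120) held 81, 91 and 79 fragments against 33, 22 and 10 (difference 1.56, SE 0.31, adjusted p = 0.0024). Of the nearest regions that rose, others lay by H15 and inv, with differences of 1.49 and 1.45, and those that fell lay among others by mid and en. Each of the named risers lay at least 5964 bp from its start site, and a region at a start site of en was gained, with 67, 70 and 71 fragments.

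In the Hox complexes, 1 promoter region rose and 3 fell of 13, against 5.07% and 3.1% of all promoter regions tested. At Abd-B, the Hox gene of the posterior abdomen (chr3R:16934106-16934561), the ranks were 6658, 8996 and 7946.5 at stage 5 and 2103, 3182 and 2297 at stage 6 (difference 1.29, SE 0.29, adjusted p = 0.0054). At abd-A, of the anterior abdomen (chr3R:16829860-16830368), they were 937, 468 and 582 against 3861, 2812 and 2420 (difference -0.96, SE 0.28, adjusted p = 0.032), with mean fragments of 101 at stage 5 and 89.3 at stage 6. The other 2 promoter regions of Abd-B had differences of -0.82 and -0.34 and were not called, so its regions differed among themselves, and 2 regions by zen2 fell. Of the 41 tested regions nearest to genes of this list, which also holds zen, zen2 and bcd, 4 rose and 7 fell, against 5.71% and 5.13% of all regions. At zen itself (chr3R:6753493-6754915) the difference was -0.66 (SE 0.28, adjusted p = 0.13) and did not pass.

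Dorsal ectoderm genes fell at 5 of 23 promoter regions and rose at 1, against 3.1% and 5.07% of all promoter regions tested. The falls include both regions by zen2, which the Hox list counts too. The tup promoter, of a LIM homeobox gene of the amnioserosa (chr2L:18880656-18881694), was among the strongest regions of each stage 6 embryo, at ranks 27, 30 and 13, and stood at 516, 1252 and 2700 at stage 5 (difference 1.69, SE 0.34, adjusted p = 0.0027). The scw promoter, of a BMP ligand of the blastoderm (chr2L:19699727-19701168), held 29, 44 and 79 fragments at stage 5 and 19, 14 and 21 at stage 6 (difference -1.59, SE 0.36, adjusted p = 0.0060). Doc1 (chr3L:9040740-9041596), a T-box gene like Doc2, fell as well (difference -1.26, SE 0.31, adjusted p = 0.012), as did kay, the Fos gene (-1.12, SE 0.29, adjusted p = 0.015). Mean fragments were 109 at stage 5 and 100 at stage 6 at Doc1, and 79.3 and 58.3 at kay. Embryo 10 was the nearest to stage 6 at scw.

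Neuroectoderm and mesoderm genes had 14 and 19 promoter regions tested, none of which rose or fell at this threshold. Of all promoter regions tested 5.07% rose and 3.1% fell, and lists this short can hold none at such shares. Of 36 tested regions nearest to the neuroectoderm genes 4 rose and 3 fell, and of 33 nearest to the mesoderm genes 2 rose and 1 fell. Over all regions tested 5.71% rose and 5.13% fell. Away from the start sites, 2 regions by Dr, the homeobox gene of the dorsal neuroectoderm columns, rose, the stronger of them 8258 bp away (chr3R:29547891-29548470) from 32, 21 and 15 fragments to 113, 121 and 114 (difference 2.02, SE 0.27, adjusted p = 0.00011). By SoxN a region 6883 bp away (chr2L:8832044-8832933) fell (difference -1.52, SE 0.29, adjusted p = 0.0021), and by zfh1, a mesodermal zinc finger gene, a region 1617 bp away (chr3R:30764136-30764439) fell (difference -1.65, SE 0.28, adjusted p = 0.00072). The region by l(1)sc (chrX:417097-417653), a proneural gene, rose from 50, 19 and 6 fragments to 90, 62 and 84 (difference 1.83, SE 0.49, adjusted p = 0.019). This region is on X, and embryo 10, high in X, was the highest of its stage. New regions within 1 kb of a start site lay at ac and at bap.

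Tracheal genes had 3 of 9 promoter regions that rose and 1 that fell, against 5.07% and 3.1% of all promoter regions tested. Of these 3 rises 2 lay at 1 gene, dysf. At dysf, a bHLH-PAS gene of tracheal fusion cells (chr3R:26099127-26099776), the fragments were 21, 16 and 20 at stage 5 and 80, 82 and 91 at stage 6 (difference 1.82, SE 0.28, adjusted p = 0.00039), and a second region at its start site rose by 1.78 on the score scale (SE 0.39, adjusted p = 0.0049). At btl, the FGF receptor of the trachea (chr3L:14076450-14077129), the ranks moved from 50, 94 and 215 to 2287, 1895 and 836 (difference -1.28, SE 0.31, adjusted p = 0.011). A promoter region of apt also rose (chr2R:23565286-23566010, difference 1.32, SE 0.29, adjusted p = 0.0049), and its other promoter region, with a difference of -0.69, was not called. Of 8 GATA factor promoter regions, that of GATAe rose (difference 1.27, SE 0.38, adjusted p = 0.033) and that of grn fell (-1.16, SE 0.31, adjusted p = 0.019). At grn the mean fragments were 103 at stage 5 and 95 at stage 6. In the Notch list 1 of 18 promoter regions fell (5.56%, against 3.1% of all promoter regions tested), at E(spl)m4-BFM (chr3R:26024203-26025076, difference -1.25, SE 0.32, adjusted p = 0.014). Its mean fragments were 128 at stage 5 and 122 at stage 6.

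The list of epidermal barrier genes and known targets of Grh had a median of 0.27, with 1 of 12 promoter regions that rose (8.33%) and none that fell. Of all promoter regions tested 5.07% rose and 3.1% fell, so a single rise in a list this short is near that share. At cora, a septate junction protein (chr2R:19228873-19229650), the ranks went from 5153, 6624 and 8818 at stage 5 to 2082, 1452 and 117 at stage 6 (difference 1.74, SE 0.35, adjusted p = 0.0027), in embryos without Grh. A region at shot was gained, with 27, 32 and 27 fragments. Among further single loci, the lbl promoter (chr3R:21434065-21434659) held 41, 31 and 39 fragments against 14, 10 and 10, a difference of 0.94 that did not pass the test (SE 0.36, adjusted p = 0.10). At D (chr3L:14176578-14178434) the difference was 0.85 (SE 0.33, adjusted p = 0.10), and at the region nearest to saturn, 2111 bp from its start site, it was 0.43 (SE 0.31, adjusted p = 0.41). At pb 2 regions were listed in all 3 stage 6 embryos and in 2 and 1 of the stage 5 embryos, and were not tested. Of the 4 tested regions at start sites of grh none passed, with differences of -0.55 to 0.76. Genes of genome activation and chromatin factors had 1 fall, at Trl, in 16 promoter regions, and of 110 regions at cytoplasmic ribosomal protein genes 1 fell, at RpL13A, where a snoRNA gene also starts, and none rose. At Trl the mean fragments were 63.3 at stage 5 and 61.7 at stage 6.

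**Figure D4:**
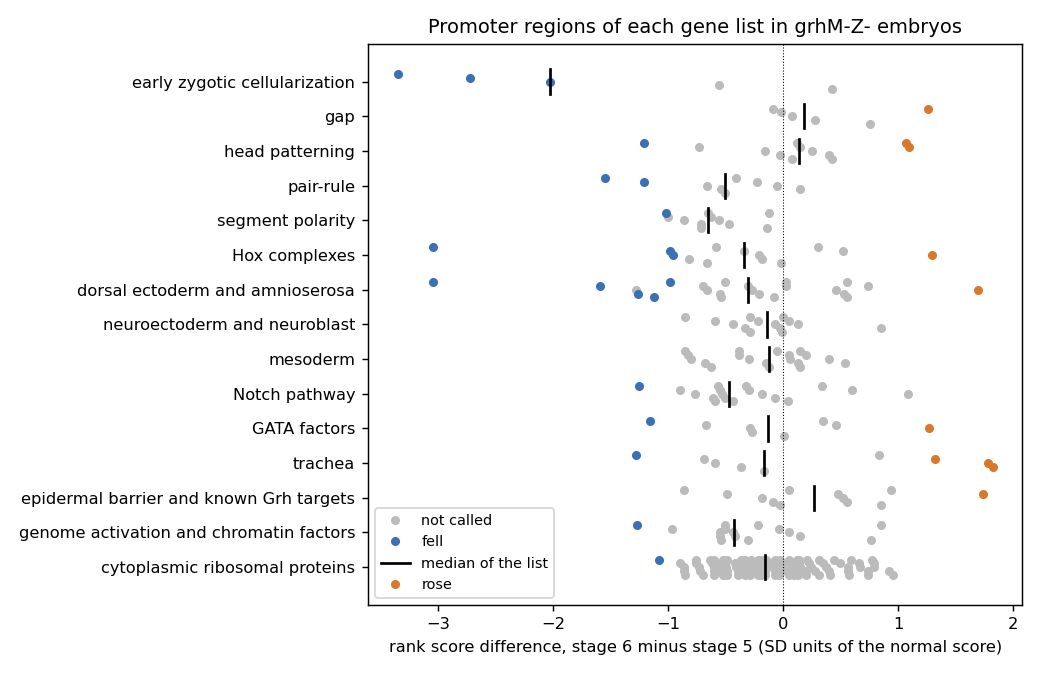
Rank score difference, stage 6 minus stage 5, of each promoter region tested, by gene list, in grhM-Z- embryos, with orange for regions that rose, blue for those that fell, grey for those not called and a black bar for the median of the list. The early zygotic cellularization genes, with a median of -2.03, lie farthest to the left, and the 110 regions of ribosomal protein genes gather around -0.15.

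Whether the change from stage 5 to 6 depended on grh was asked by comparing it with that of the grhMwtZwt embryos, which share no library with the grhM-Z- embryos. In the 10157 regions listed in all 11 embryos, the test of the difference between the stage changes called 0 regions at an adjusted p under 0.05 (0.0%), and 409 regions (4.03%) had an unadjusted p under 0.05, by limma, with a smallest adjusted p of 0.993. The SE of this difference had a median of 0.50 score units, so differences of the size of many stage changes could not be told apart from 0. In the same fit 1235 regions were called in grhM-Z- and 540 in grhMwtZwt, which had 1 embryo fewer, and these counts do not compare the genotypes. Of the 1235 regions, 1199 changed in the same direction in grhMwtZwt (97.1%), as did 70.8% of all 10157 regions.

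The named regions are given for both genotypes side by side, and none passed the test of the difference. At the region by CG7968 the stage difference was 3.34 (SE 0.34) in grhM-Z- and 2.09 (SE 0.38) in grhMwtZwt, with a difference of 1.25 (SE 0.51, adjusted p = 0.99). By trn it was 2.88 and 2.58, by CG12402 2.80 and 2.22, and by Tret1-1 2.71 and 2.42. At the far region by Doc2 it was -2.94 (SE 0.30) and -3.40 (SE 0.34). The bnk, zen2 and CG15382 regions were not listed in the 2 stage 6 embryos of grhMwtZwt and were listed in all 3 of its stage 5 embryos, so no value of the change exists there. Of the 10 strongest gained regions, all were listed in both stage 6 embryos of grhMwtZwt, and 7 in none of its stage 5 embryos, the others being those by Fer1HCH, sba and CG11741. Of the 10 strongest lost regions, all were listed in its 3 stage 5 embryos, and 8 in neither stage 6 embryo, the others being those by CR43170 and CR40182. The lowest interaction p (0.00059, adjusted 0.99) was that of a region 13679 bp from Nipped-B, with a difference of -0.58 in grhM-Z- and -2.27 in grhMwtZwt.

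The direction of the same regions was then read in grhMwt and grhM-, which are deposited as 1 pooled list per stage and so give no error, and in the means of the single embryos of grhMwtZwt. Of risers with a value in all lists concerned, 541 of 577 were higher at stage 6 in grhMwt (93.8%), 590 of 636 in grhM- (92.8%) and 596 of 610 in grhMwtZwt (97.7%), against 50.9%, 52.0% and 48.8% of all regions listed in all 6 embryos. Of fallers it was 21 of 562 (3.74%), 27 of 545 (4.95%) and 12 of 478 (2.51%). Regions not listed in such a list were left out, so these shares do not cover all risers or fallers. Among gained regions 71.7% overlapped a peak of grhMwt stage 6 and none of grhMwt stage 5, against 26.3% of all regions, and among lost regions 49.6% the reverse, against 7.74%. In grhM- these were 53.5% and 56.4%, against 16.4% and 11.9%. In grhMwtZwt, 37.5% of gained regions were listed in both stage 6 and no stage 5 embryo, against 4.47%, and 34.9% of lost regions in all 3 stage 5 and no stage 6 embryo, against 2.38%. The pooled stage 6 lists of grhZ- and grhZwt have no stage 5 list beside them. Of lost regions 70.6% and 64.1% overlapped a peak there, against 76.7% and 73.8% of all regions, and of gained regions 98.8% and 98.5%. Most lost regions were thus still listed in these other stage 6 embryos. At 11-12 h, 8.47% of gained regions overlapped a peak of the grhB37/grhB37 list and 20.4% of the grhB37/+ list, against 9.96% and 22% of all regions. Of lost regions 4.1% and 9.04% did.

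**Figure D5:**
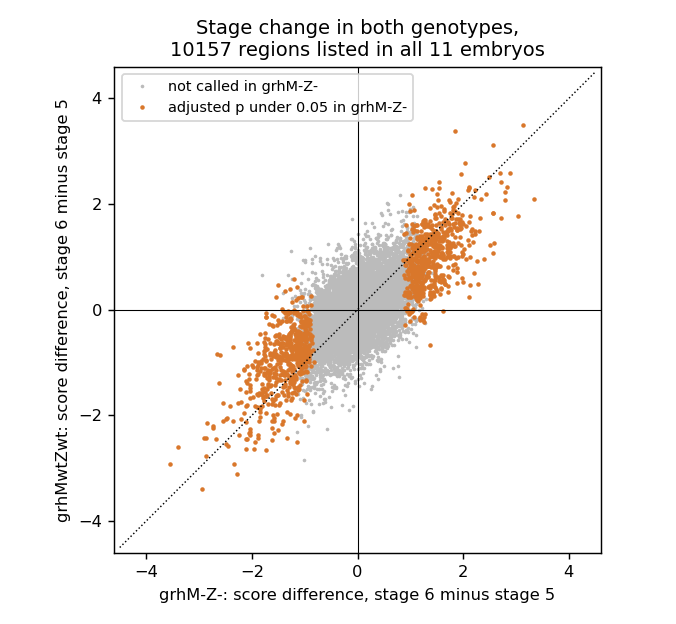
Score difference from stage 5 to stage 6 in grhM-Z- (horizontal) and in grhMwtZwt embryos (vertical) for the 10157 regions listed in all 11 embryos, with the regions called in grhM-Z- in orange and equal change as the dotted line. Of the 1235 orange regions 97.1% lie in the quadrants of equal sign, and 0 regions passed the test of a difference between the genotypes.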

How the data were processed

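Single embryos were assayed by ATAC-seq. Trimmomatic 0.36 and Bowtie2 are named in the submitters' processing notes, and the build is dm6. Per the study's methods, multiply mapping reads and long fragments were removed and MACS2 called peaks at a q-value of 0.05. The deposited lists give for each summit the fold enrichment, a ratio, a score (10 times −log10 q), and −log10 p and −log10 q. The authors made these values, and they grow with depth. Fragments and background were solved from fold and p, and 100% of summits gave a whole number within 0.05.

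Summits of a peak were reduced to the strongest, and peaks overlapping by 1 bp were merged. Genes and start sites were from the Ensembl annotation of the same assembly, without transposable elements. Normal scores of ranks were tested with limma 3.58.1 in R 4.3.3, and shares by exact two-sided permutation over embryos, with Benjamini-Hochberg adjustment and a threshold of 0.05. The test was checked on simulated data. Regions in every embryo only were tested, which leaves out the weaker ones. Named regions are the 10 with the best mean rank among gained and among lost regions, the 10 largest called differences of each sign without overlap, up to 4 called promoter regions per gene list, and genes the study shows. The members and lists were chosen with earlier results of these data known. Each sample is a single embryo, so p-values measure the spread between embryos. Lists of grhMwt and grhM- and the stage 6 lists of grhZwt and grhZ- hold replicates called together, and each 11-12hr list is 1 sample of pooled embryos. Alternatives were list length, q, overlap, ranking, filter, chromosomes and each embryo left out.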

Additional observations from a re-analysis of the deposited data

How the results depend on the processing

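No paired analysis was possible because the peak names carry no replicate number of the labels, so the fit with a replicate block was not run. The count of risers was 523 by fold enrichment, 765 by log2 fragments and 703 on autosomes, and of fallers 542, 634 and 645. By fold enrichment 391 of the 647 risers and 376 of the 582 fallers were called again and 6 regions changed sign, and by log2 fragments 513 and 447 were called again and 4 changed sign. Without the filter on regions listed in all 6 embryos there were 2379 and 2314, and among the strongest 5000 regions 293 and 234. Leaving out 1 embryo gave 260 to 802 risers, 289 to 653 fallers, 3452 to 4987 gained and 921 to 1528 lost regions. Gained and lost regions numbered 2076 and 1025 with lists of equal length, 2653 and 600 at −log10 q of at least 3, 3399 and 702 with reciprocal overlap of 50%, and 2606 and 625 on autosomes. All 20 named risers and fallers kept their call under each alternative in which they were tested, though only 7 were among the strongest 5000 regions and 19 on autosomes. They were picked as the largest differences in these same embryos, so kept calls are no independent support. The difference in the Grh motif share was -0.05 points in the strongest 2000 peaks, -0.06 by fold enrichment and from -0.02 to 0.1 with an embryo left out. That of Opa was -0.283 points in the strongest 2000 peaks and 0.58 within 100 bp of the summit (exact permutation p = 0.1 for each, the smallest possible), and that of the promoter share ran from -1.98 to 0.667 with an embryo left out. The test between genotypes called 0 regions under every alternative run. The cause of these shifts was not tested. Depth limits the weak regions, which may be present in an embryo and not listed.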
